A study of Homo sapiens with 9 samples.

Results

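APOBEC3 cytidine deaminases were followed at the mRNA level in the colorectal cancer cell line LIM1215 before and after it had acquired resistance to cetuximab, an antibody against the epidermal growth factor receptor. The members were taken by symbol: APOBEC3A, APOBEC3B, APOBEC3C, APOBEC3D, APOBEC3F, APOBEC3G and APOBEC3H, which are 7 of the 58920 genes listed in the count tables, and all 7 were present in each table. With at least 10 counts over the 9 libraries, 4 members (APOBEC3B, APOBEC3C, APOBEC3F and APOBEC3H) were among the 19102 genes tested.

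These enzymes convert cytosine to uracil in single-stranded DNA. They belong to the innate defence against retroviruses and mobile elements, and several of them, APOBEC3A and APOBEC3B above all, are known as a source of mutations in tumours, including cancers of the digestive tract. In the human genome the genes lie one after the other on chromosome 22, and many of them resemble each other closely in sequence.

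Poly(A) RNA was sequenced from LIM1215-parental cells and from the resistant lines LIM1215-R1 and LIM1215-R2, with 3 libraries per line. The resistant lines had been selected separately from the parental line over months of rising cetuximab exposure, and each is a mixed population rather than a clone. The study reports activating HRAS mutations, different in LIM1215-R1 and LIM1215-R2, in a subpopulation of the resistant lines. RNA was taken from all 3 lines in basal culture without the antibody, in RPMI medium with 10% serum. The study describes its replicates as technical, so the p-values below measure the spread between these libraries, and the resistance of a line cannot be told apart from other features of that 1 population. Because bulk RNA was measured in mixed populations, more mRNA per cell and more cells with the mRNA cannot be told apart either.

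The libraries held 13737416 to 18725014 counts in genes, at which a count of 0 in 1 library allows a level of up to 0.160 to 0.218 counts scaled to library size (CPM). Over the 3 libraries of a line this limit was 0.0602 CPM for the parental line, 0.0622 CPM for LIM1215-R1 and 0.0621 CPM for LIM1215-R2. These limits cover counting error only. Of the 10 colorectal epithelial markers, 9 were detected, and KRT20 was at 0 counts in all 9 libraries. The epithelial markers summed to 12742 to 16172 CPM per library. Of the 8 lymphocyte markers, the cells in which APOBEC3G and APOBEC3H are usually abundant, 6 were at 0 in LIM1215-parental and LIM1215-R1 and 7 in LIM1215-R2, among them PTPRC, CD3D and CD3E. Their sum was 0.123 to 0.506 CPM per library. The myeloid list, of 7 genes, summed to 7.85 to 15.0 CPM, most of it CD68, with TYROBP at 0 in all lines. The fibroblast list, of 6 genes, summed to 1.19 to 3.19 CPM with COL1A2 at 0 in all lines.

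APOBEC3B, the nuclear member of the family, was by far the most abundant APOBEC3 mRNA in each line, and it was higher in both resistant lines than in the parental line. The LIM1215-parental libraries gave 9.56, 13.3 and 12.1 CPM. The LIM1215-R1 libraries gave 28.6, 27.2 and 23.6 CPM, and the LIM1215-R2 libraries gave 23.5, 20.4 and 20.5 CPM. All 6 resistant libraries lay above all 3 parental ones, and the lowest LIM1215-R1 library lay just above the highest LIM1215-R2 library. The means were 11.7 ± 1.91, 26.4 ± 2.57 and 21.5 ± 1.76 CPM (SD, n = 3 per line).

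**Figure D1:**
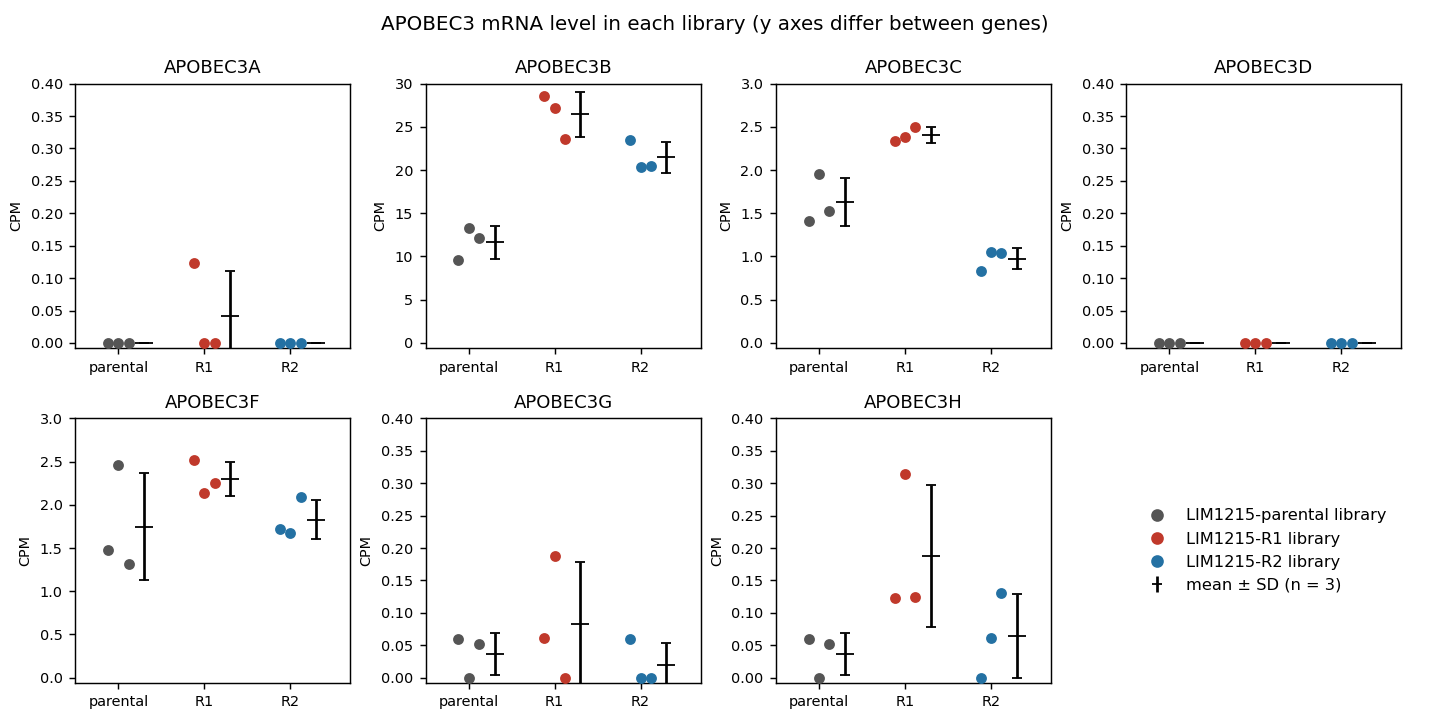
mRNA level of each APOBEC3 gene in CPM (y axis, with a different scale for APOBEC3B, for APOBEC3C and APOBEC3F, and for the other genes) in the 3 libraries of each line (x axis). Points are libraries and black bars are the mean ± SD of 3 libraries, drawn down to the axis limit where they would pass below 0. APOBEC3B is higher in all resistant libraries, APOBEC3C is highest in LIM1215-R1 and lowest in LIM1215-R2, and APOBEC3D is at 0 throughout.

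In LIM1215-R1 the APOBEC3B level was 2.28-fold that of the parental line (95% interval 1.96 to 2.65), or 1.19 on the log2 scale (SE 0.107; adjusted p = 6.17e-10 by the quasi-likelihood test of edgeR, with adjustment after Benjamini and Hochberg, as for all adjusted p-values here). In LIM1215-R2 it was 1.85-fold the parental level (1.58 to 2.16), or 0.89 on the log2 scale (SE 0.109; adjusted p = 1.96e-07). Between the resistant lines the log2 fold change of LIM1215-R2 against LIM1215-R1 was -0.30 (95% interval -0.50 to -0.10; adjusted p = 0.0420), which did not pass the threshold of 0.01 although the library values did not overlap. Of the 19102 genes, 7.66% had a higher log2 fold change than APOBEC3B in LIM1215-R1 and 9.89% in LIM1215-R2.

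A gene is counted below as passed when its adjusted p was no higher than 0.01, and as a differentially expressed gene (DEG) when its absolute log2 fold change was also at least 1.5. Of the 4 members tested, 1 (APOBEC3B) was higher and 0 were lower in LIM1215-R1 against LIM1215-parental, where 27.3% of all genes tested passed, and 0 members were DEGs, as were 5.14% of all genes. In LIM1215-R2 against LIM1215-parental, again 1 (APOBEC3B) was higher, 0 were lower and 0 were DEGs, beside 23.8% passed and 4.82% DEGs over all genes. Between LIM1215-R2 and LIM1215-R1, 0 members were higher, 1 (APOBEC3C) was lower and 0 were DEGs, beside 7.16% passed and 0.764% DEGs. At an unadjusted p under 0.05 the count was 2 of 4 in each of the 3 comparisons, beside 43.1%, 39.8% and 24.6% of all genes. APOBEC3H reached the minimum of 10 counts through LIM1215-R1, which held 9 of its 14 counts, so these counts of 4 include a member that entered because of 1 line. The comparisons of the resistant lines share the parental libraries, and their values are therefore given side by side.

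**Figure D2:**
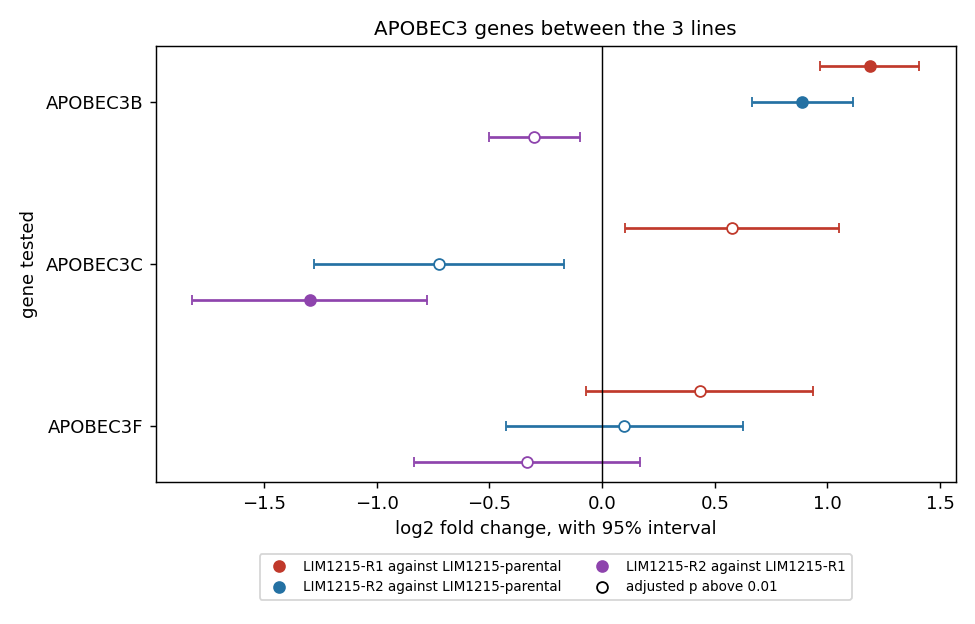
Log2 fold change (x axis) of the APOBEC3 genes with more than 3 counts in every line (y axis), with the 95% interval as the bar, in the 3 comparisons given by colour. Filled points passed the threshold of 0.01: APOBEC3B in both resistant lines against the parental line (1.19 and 0.89) and APOBEC3C between the resistant lines (-1.30).

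APOBEC3C, a member with a single deaminase domain, went different ways in the resistant lines. The LIM1215-parental libraries gave 1.42, 1.95 and 1.52 CPM, or 24, 27 and 29 counts. The LIM1215-R1 libraries gave 2.33, 2.38 and 2.50 CPM (38, 38 and 40 counts), and the LIM1215-R2 libraries gave 0.832, 1.05 and 1.04 CPM (14, 17 and 16 counts). No library of 1 line overlapped with those of another, with LIM1215-R1 on top, the parental line in the middle and LIM1215-R2 at the bottom. The level in LIM1215-R1 was 2.46-fold that in LIM1215-R2, and the log2 fold change of LIM1215-R2 against LIM1215-R1 was -1.30 (SE 0.254; 95% interval -1.82 to -0.78; adjusted p = 0.000744). Against the parental line neither difference passed: the log2 fold change was 0.57 in LIM1215-R1 (SE 0.231; adjusted p = 0.0529) and -0.72 in LIM1215-R2 (SE 0.270; adjusted p = 0.0409).

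APOBEC3F, a restriction factor with paired deaminase domains, showed no difference that passed the test. Its libraries gave 1.47, 2.46 and 1.31 CPM in LIM1215-parental, where the middle library stood well above the others. They gave 2.51, 2.13 and 2.25 CPM in LIM1215-R1 and 1.72, 1.67 and 2.09 CPM in LIM1215-R2. The parental range spanned nearly all the other values, while those of the resistant lines did not overlap with each other. The 95% interval of the log2 fold change was -0.07 to 0.94 in LIM1215-R1 against the parental line (adjusted p = 0.186), -0.43 to 0.62 in LIM1215-R2 against the parental line (adjusted p = 0.824), and -0.83 to 0.17 between the resistant lines (adjusted p = 0.440). At 25 to 41 counts per library, changes of a size within these intervals remain possible.

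APOBEC3H, the last gene of the cluster, was at the edge of detection. It had 1, 0 and 1 counts in the LIM1215-parental libraries, 2, 5 and 2 counts in LIM1215-R1, and 0, 1 and 2 counts in LIM1215-R2. With at most 3 counts in the 3 libraries together, it was below detection in LIM1215-parental and in LIM1215-R2. The 9 counts of LIM1215-R1 against the 2 of LIM1215-parental give a ratio of 4.65 with an exact 95% counting interval of 0.963 to 44.2. The quasi-likelihood test of edgeR, a separate fit that APOBEC3H entered through LIM1215-R1, gave an adjusted p of 0.152. No difference is read from it.

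The remaining members were absent or nearly so. APOBEC3D was at 0 counts in all 9 libraries, and APOBEC3A, the other member best known for mutating tumour genomes, was at 0 in 8 libraries with 2 counts in the first LIM1215-R1 library. Both were thus below detection in all 3 lines. APOBEC3G, the restriction factor best known for hypermutating HIV, had 2 counts over the LIM1215-parental libraries, 4 over those of LIM1215-R1 and 1 over those of LIM1215-R2, and was below detection in the parental line and LIM1215-R2. The ratio of LIM1215-R1 to LIM1215-parental was 2.07 with a counting interval of 0.296 to 22.8. The antisense gene APOBEC3B-AS1, no member, had 1 count in each of 2 LIM1215-R1 libraries and 0 elsewhere. No fold change is read from pairs of lines in which both were at 3 counts or fewer, such as APOBEC3H in LIM1215-R2 and LIM1215-parental.

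Divided by the annotated exon length, the members can be ordered within a line. In LIM1215-parental APOBEC3B stood at 6.15 ± 1.01 CPM per kb, APOBEC3C at 0.616 ± 0.107, APOBEC3F at 0.335 ± 0.119 and APOBEC3H at 0.0297 ± 0.0259 CPM per kb (SD, n = 3). The order was the same in LIM1215-R1, with 13.9 ± 1.36 CPM per kb for APOBEC3B, 0.910 ± 0.0333 for APOBEC3C, 0.441 ± 0.0374 for APOBEC3F and 0.150 ± 0.0876 for APOBEC3H. In LIM1215-R2 APOBEC3B stood at 11.3 ± 0.927 CPM per kb, while APOBEC3C at 0.369 ± 0.0473 and APOBEC3F at 0.351 ± 0.0437 CPM per kb differed by less than their spread. Among the 16361 genes tested that had an annotated length, APOBEC3B had a level per kb above 62.1% of genes in the parental line, 79.6% in LIM1215-R1 and 75.4% in LIM1215-R2. APOBEC3C stood above 25.2% to 33.3% and APOBEC3F above 24% to 26.5% of these genes.

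APOBEC3B made up 77.2% ± 2.87 of all APOBEC3 counts in the parental line, 84.0% ± 1.00 in LIM1215-R1 and 88.1% ± 1.86 in LIM1215-R2 (SD, n = 3). The share of APOBEC3C was 10.8% ± 0.613, 7.70% ± 0.975 and 4.04% ± 0.744 in the same order, and that of APOBEC3F was 11.4% ± 2.6, 7.33% ± 0.651 and 7.54% ± 1.13. The 7 genes together summed to 15.1 ± 2.56 CPM in the parental line, 31.5 ± 2.71 in LIM1215-R1 and 24.3 ± 1.55 in LIM1215-R2, with no overlap between the lines.

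**Figure D3:**
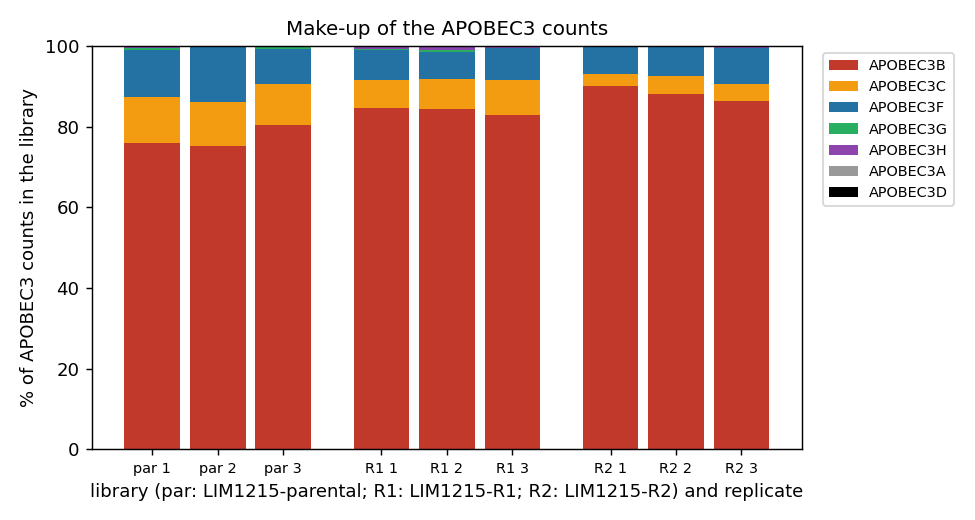
Share of each APOBEC3 gene in the APOBEC3 counts of a library (y axis, percent) for the 9 libraries (x axis). APOBEC3B takes the largest part of every bar, on average 77.2% in the parental line, against 84.0% and 88.1% in LIM1215-R1 and LIM1215-R2.

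The likeness of the genes bears on how reads can be assigned to them. In GENCODE v44 on hg38, all 7 lie on the plus strand of chromosome 22, from APOBEC3A (chr22:38952741-38963184) over APOBEC3B (chr22:38982347-38992804), APOBEC3C (chr22:39014257-39020352), APOBEC3D (chr22:39021113-39033277), APOBEC3F (chr22:39040604-39055972) and APOBEC3G (chr22:39077067-39087743) to APOBEC3H (chr22:39097224-39104067). Of the exonic stretches of 100 bases, 63.9% of those of APOBEC3B occurred once on the hg38 chromosomes, the lowest share of the family. The shares were 88.4% for APOBEC3A, 91.7% for APOBEC3D, 94.0% for APOBEC3G, 95.6% for APOBEC3F, and 100% for APOBEC3C and APOBEC3H. APOBEC3B shared 127 such stretches with APOBEC3A, 56 with APOBEC3D and 32 with APOBEC3F. When the alternate sequences of hg38 were counted too, the unique share was 43.7% for APOBEC3B and 40.4% for APOBEC3A, and was the same for the other members. APOBEC3D shared 97 stretches of 100 bases with APOBEC3F. At 50 bases the unique share on the chromosomes was 77.7% for APOBEC3D, 84.0% for APOBEC3F, 84.8% for APOBEC3G and 95.9% for APOBEC3C. Where reads with several matches are dropped, the level of any member with repeated stretches is a lower bound, APOBEC3A and APOBEC3B above all. How the study's counting treated such reads, and the read length, are not given in the sources used here.

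NF-kB subunits of the non-canonical pathway, RELB and NFKB2, are known to drive APOBEC3B transcription, and the DREAM complex of E2F factors, pocket proteins and LIN subunits is known to repress it. Of 16 such genes, all tested, 3 were higher and 3 lower in LIM1215-R1 against the parental line, 2 were higher and 2 lower in LIM1215-R2 against the parental line, and 1 was higher and 2 lower in LIM1215-R2 against LIM1215-R1. Their median log2 fold change was 0.10, 0.06 and -0.02 in these comparisons, and none was a DEG. The share of the list that passed was 37.5%, 25% and 18.75%, beside 27.3%, 23.8% and 7.16% of all genes tested. That background includes genes with few counts, in which a change is harder to detect, while the listed genes had at least 76 counts per library. In a fit of only the 12180 genes with at least 10 counts in every library, 4505, 3900 and 1179 passed. The lists below are set against the same background of all genes tested.

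NFKB2 rose from 58.4 ± 3.71 CPM in LIM1215-parental to 113 ± 3.34 in LIM1215-R1 (log2 fold change 0.96, adjusted p = 1.13e-13) and to 74.3 ± 0.702 in LIM1215-R2 (0.35, adjusted p = 1.93e-05; SD, n = 3). RELB rose from 22 ± 1.42 CPM to 38.6 ± 2.11 in LIM1215-R1 (log2 fold change 0.81, adjusted p = 2.19e-09) and to 27.1 ± 1.51 in LIM1215-R2 (0.31, adjusted p = 0.00378). Both were lower in LIM1215-R2 than in LIM1215-R1, by log2 fold changes of -0.61 for NFKB2 (adjusted p = 7.70e-09) and -0.51 for RELB (adjusted p = 2.72e-05). The mean levels of NFKB2, RELB and APOBEC3B thus had the same order over the lines, with LIM1215-parental lowest and LIM1215-R1 highest. The difference of APOBEC3B between the resistant lines did not pass (adjusted p = 0.0420). REL, another NF-kB subunit of the list, named after its values were seen, had the opposite order: it fell from 43.3 ± 2.85 CPM to 30.9 ± 1.28 in LIM1215-R1 (log2 fold change -0.48, adjusted p = 1.06e-05) and to 35.6 ± 3.42 in LIM1215-R2 (-0.28, adjusted p = 0.00472). Whether any of these levels is linked to that of APOBEC3B was not tested.

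Of the DREAM members, RBL2, a pocket protein, was lower in LIM1215-R1 (log2 fold change -0.49, adjusted p = 1.62e-07) and had a log2 fold change of -0.19 in LIM1215-R2 (adjusted p = 0.0113). Between the resistant lines, RBL2 was higher in LIM1215-R2 (log2 fold change 0.30, adjusted p = 0.00107). LIN9, a core subunit, was lower in both resistant lines, with log2 fold changes of -0.57 (adjusted p = 3.74e-06) and -0.48 (adjusted p = 3.92e-05). RBL1, E2F4, LIN37, LIN52 and LIN54 did not pass against the parental line in either resistant line. Their log2 fold changes in LIM1215-R1 and LIM1215-R2 had both signs. They were -0.15 and 0.01 for RBL1, 0.09 and 0.08 for E2F4, and 0.27 and 0.14 for LIN37. LIN52 had 0.13 and 0.26, and LIN54 had -0.10 and -0.13. Whether the complex changed as a whole was not tested.

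**Figure D4:**
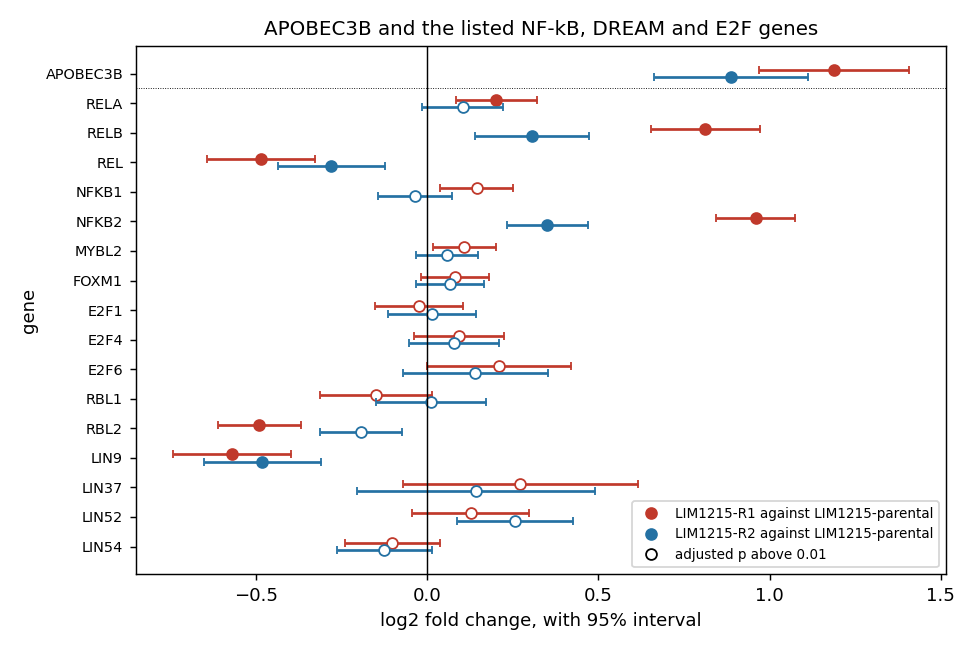
Log2 fold change (x axis) with 95% intervals of APOBEC3B (top) and the 16 listed NF-kB, DREAM and E2F genes (y axis) in LIM1215-R1 (red) and LIM1215-R2 (blue) against LIM1215-parental. Filled points passed the threshold of 0.01. NFKB2 and RELB lie further to the right in LIM1215-R1 (0.96 and 0.81) than in LIM1215-R2 (0.35 and 0.31).

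Uracil left in DNA by the deaminases is removed by base excision repair. Of 16 genes of uracil and abasic site repair, all tested, against the parental line 2 rose and 2 fell in LIM1215-R1, while 2 rose and 3 fell in LIM1215-R2, with median log2 fold changes of -0.06 and 0.02. Between the resistant lines, 0 of the 16 passed. In these 3 comparisons 25%, 31.25% and 0% of the list passed, beside 27.3%, 23.8% and 7.16% of all genes tested.

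UNG, the main uracil-DNA glycosylase, fell from 111 ± 4.60 CPM in LIM1215-parental to 79.2 ± 0.434 in LIM1215-R1 and 87.0 ± 3.43 in LIM1215-R2 (SD, n = 3). Its log2 fold changes were -0.48 (adjusted p = 3.59e-08) and -0.35 (adjusted p = 6.89e-06). The glycosylase gene NEIL2 was higher, with log2 fold changes of 0.59 (adjusted p = 3.13e-06) and 0.63 (adjusted p = 1.10e-06). Of the AP endonuclease genes, APEX1 was lower (-0.18, adjusted p = 0.00222, and -0.29, adjusted p = 1.07e-05) and APEX2 was higher (0.46, adjusted p = 4.89e-06, and 0.41, adjusted p = 2.96e-05) in the same order of lines.

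Several APOBEC3 genes are known to respond to interferon. Of 22 genes of interferon signalling and other restriction factors, all tested, against the parental line 12 rose and 1 fell in LIM1215-R1, while 13 rose and 1 fell in LIM1215-R2, with 5 DEGs in each line. The median log2 fold change was 0.69 in LIM1215-R1 and 0.62 in LIM1215-R2. Between the resistant lines 0 were higher and 2 lower. In these 3 comparisons 59.1%, 63.6% and 9.09% of the list passed, beside 27.3%, 23.8% and 7.16% of all genes tested. Of all genes, 5.14% and 4.82% were DEGs in LIM1215-R1 and LIM1215-R2 against the parental line.

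ISG15, a ubiquitin-like interferon-induced protein, rose by log2 fold changes of 3.15 (adjusted p = 1.66e-13) in LIM1215-R1 and 2.99 (adjusted p = 6.71e-13) in LIM1215-R2. MX1, an antiviral GTPase, rose by 1.78 (adjusted p = 5.12e-10) and 1.99 (adjusted p = 4.27e-11) on the log2 scale. IFITM1, which restricts virus entry, rose by 1.04 (adjusted p = 6.92e-14) and 0.99 (adjusted p = 1.69e-13), and IFITM2 by 0.94 (adjusted p = 4.01e-12) and 0.70 (adjusted p = 2.02e-09). In the same libraries APOBEC3G had 7 counts in all and APOBEC3A had 2. Against the parental line APOBEC3B was higher in both resistant lines, while APOBEC3C and APOBEC3F did not pass. Whether the level of any member is linked to those of the interferon genes was not tested.

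Among the relatives outside the cluster, 3 of 6 listed genes could be tested: APOBEC1, which edits cytosines in RNA, and its cofactors A1CF and RBM47. APOBEC1 had 2, 5 and 3 counts over the parental, LIM1215-R1 and LIM1215-R2 libraries, and did not pass. A1CF fell from 3.97 ± 0.438 CPM in LIM1215-parental to 0.290 ± 0.0678 in LIM1215-R1 and 0.357 ± 0.208 in LIM1215-R2, with log2 fold changes of -3.75 (adjusted p = 2.70e-10) and -3.47 (adjusted p = 5.71e-10). RBM47 was lower by a small amount, with log2 fold changes of -0.17 (adjusted p = 0.00335) and -0.20 (adjusted p = 0.00105).

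On chromosome 22, a total of 12 genes from the 2 sides of the cluster were compared as well, all tested. Against the parental line 3 were higher and 2 lower in LIM1215-R1, and the same numbers were found in LIM1215-R2, with 2 DEGs each. Thus 41.7% of the neighbours passed in each line, beside 27.3% and 23.8% of all genes, of which 5.14% and 4.82% were DEGs. CBX6, a Polycomb subunit gene and the nearest listed neighbour before APOBEC3A, rose from 21.0 ± 1.22 CPM in LIM1215-parental to 117 ± 1.17 in LIM1215-R1 and 83.8 ± 3.43 in LIM1215-R2. Its log2 fold changes were 2.48 (adjusted p = 1.76e-21) and 2.0 (adjusted p = 2.0e-19), and -0.48 in LIM1215-R2 against LIM1215-R1 (adjusted p = 4.51e-07). The mean levels of CBX6 and APOBEC3B had the same order over the lines. For APOBEC3B the difference between the resistant lines did not pass (adjusted p = 0.0420). Whether the levels of these genes are linked was not tested.

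On the other side of the cluster, SYNGR1, a gene for a synaptic vesicle protein, was higher (log2 fold changes 2.79, adjusted p = 1.24e-07, and 2.75, adjusted p = 1.60e-07). The ribosomal protein gene RPL3 was lower (-0.20, adjusted p = 4.88e-05, and -0.34, adjusted p = 1.31e-08), as was the glycosyltransferase gene MGAT3 (-0.95, adjusted p = 1.18e-08, and -1.07, adjusted p = 1.78e-09). In each line 7 of the 12 neighbours did not pass, among them JOSD1, GTPBP1, SUN2, DNAL4 and NPTXR, in a row before CBX6. Whether the region changed as a whole was not tested.

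**Figure D5:**
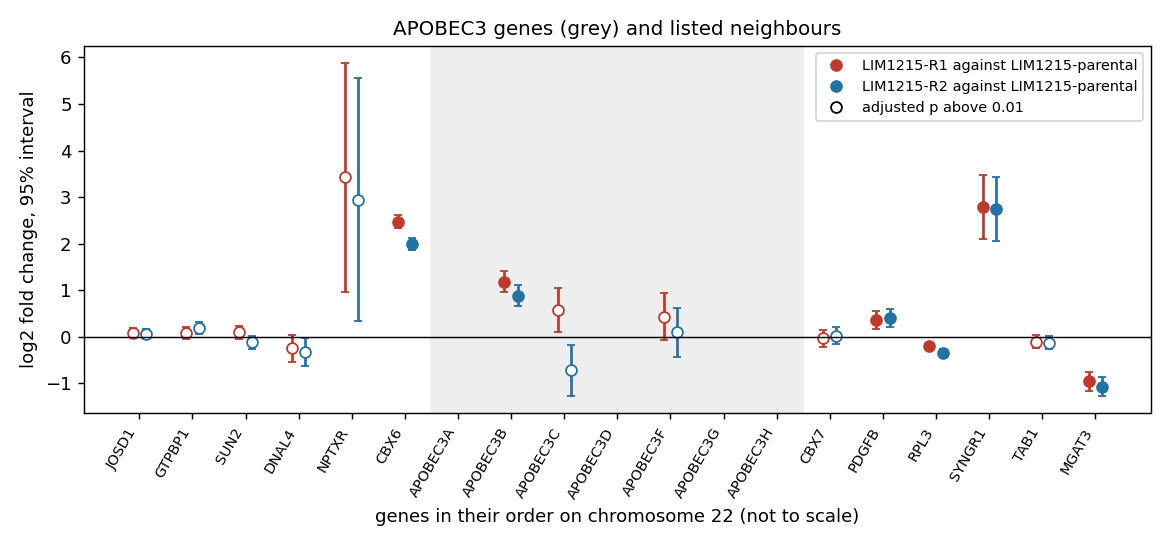
Log2 fold change (y axis) with 95% intervals of the APOBEC3 genes (grey band) and 12 listed neighbours in their order along chromosome 22 (x axis, not to scale) in LIM1215-R1 (red) and LIM1215-R2 (blue) against LIM1215-parental. Filled points passed the threshold of 0.01; members without a point had 3 counts or fewer in 1 or more lines. CBX6 (2.48 and 2.0) and APOBEC3B (1.19 and 0.89) lie above 0, while 7 of the 12 neighbours did not pass in each comparison.

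The genes whose levels followed those of a member most closely were sought among the 12741 genes that averaged 10 or more counts a library, by Pearson's r of log2 CPM over the 9 libraries. For APOBEC3B these were HOXB8, a homeobox gene, FAM83D, a mitotic spindle gene, and CDC42SE1 (r = 0.984 each). For APOBEC3C they were SLPI, PSAP and NELL2 (r = 0.981 each), and for APOBEC3F they were SMPD1 (r = 0.986), FDX2 (r = 0.925) and RTEL1 (r = 0.918). The 9 points share 3 lines and these are the highest of many values, so they are given as a description only.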

How the data were processed

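Poly(A) RNA libraries of 3 lines (3 each) were analysed. The authors aligned paired-end reads to hg38 with STAR and deposited raw counts per gene from HTSeq 0.9.1, taken in reverse-strand mode. The annotation, the read length and the treatment of reads with several matches are not given in the sources used here. Counts were analysed with edgeR 4.0.16 in R 4.3.3: a minimum of 10 counts summed over the 9 libraries, TMM factors, the quasi-likelihood F-test with the 3 lines as groups, and Benjamini-Hochberg adjustment over all genes tested. The tests were run on simulated data first. CPM used TMM-scaled library sizes. A member was called below detection in a line with at most 3 counts over its libraries. Counting intervals are exact at 95%. DESeq2 1.42.0, other filters and scalings, and leaving out each library were tried as alternatives. Same-numbered libraries were not treated as pairs in the main fit, and the replicate number was a block in 1 alternative. Positions, exon lengths and repeated stretches came from GENCODE v44 and hg38. Members and gene lists were chosen with earlier results of these data known. All members are named; of each list, up to 4 genes with the smallest adjusted p against the parental line are named.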

Additional observations from a re-analysis of the deposited data

Results flagged for a closer look

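APOBEC3C is listed here because the effects of the resistant lines against LIM1215-parental differed when the difference itself was tested: the log2 fold change of LIM1215-R2 against LIM1215-R1 was -1.30 (adjusted p = 0.000744, quasi-likelihood test of edgeR, adjusted after Benjamini and Hochberg). All 3 LIM1215-R1 libraries lay above and all 3 LIM1215-R2 libraries below the parental range. The counts behind these values were 14 to 40 per library.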

How the results depend on the processing

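The calls of APOBEC3B against LIM1215-parental held in 18 of 18 alternatives for each resistant line (log2 fold change 1.06 to 1.28 in LIM1215-R1 and 0.76 to 0.98 in LIM1215-R2), and so did that of APOBEC3C between the resistant lines (-1.36 to -0.87, adjusted p up to 0.00965). With an adjusted p of at most 0.05, 2 members passed in LIM1215-R2 against LIM1215-parental (32.4% of all genes) and 2 in LIM1215-R2 against LIM1215-R1 (13% of all genes), since this threshold is more lenient. With the DEG limit at a log2 fold change of 1, 1 member was a DEG in LIM1215-R1 against LIM1215-parental (7.31% of all genes) and 1 in LIM1215-R2 against LIM1215-R1 (1.41% of all genes), for the same reason. When each library was left out in turn, the log2 fold change of LIM1215-R2 against LIM1215-parental ran from -0.082 to 0.39 for APOBEC3F, which passed in none of the 9 fits; the cause was not tested. For APOBEC3H, with 2 and 3 counts in these lines, the fitted value ran from -0.33 to 1.12 over the 8 fits in which it could be tested, with no pass, and no fold change or direction is read from it. Without LIM1215-R1 replicate 2 it fell under the minimum of 10 counts. Correlations of same-numbered libraries ran from -0.122 to 0.345, and those of differently numbered libraries from -0.332 to 0.238. These ranges overlap and do not settle whether the numbers mark pairs, and the main fit took none. Over all genes, 5841, 5197 and 2044 passed with the replicate as a block, against 5222, 4554 and 1368 without it. The order is LIM1215-R1 and LIM1215-R2 against LIM1215-parental, then LIM1215-R2 against LIM1215-R1. With the replicate block, 1 member passed in each comparison and the log2 fold change of APOBEC3B was 1.18 and 0.88 in the resistant lines. APOBEC3A, APOBEC3D, APOBEC3G and APOBEC3H were limited by depth, and changes in them could not be detected unless large.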
